A study of Mus musculus with 112 samples.

Results

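The 200 probes described here were the brightest on a bead array among those read in both prefrontal cortex and amygdala of saline-treated mice and not read in their liver. Membership took 4 steps. Of 45281 probes, 17236 had a detection p, the probability of such a signal among an array's negative controls, under 0.05 on all 10 saline prefrontal cortex arrays and all 9 saline amygdala arrays. Of these, 2268 were at or above 0.05 on all 9 saline liver arrays other than the library labelled saline 4, and 1474 of them had cortex and amygdala means within 0.25 of each other on the log2 scale. The 200 with the highest mean over the 19 saline brain arrays were kept. The members were thus chosen by saline signals and detection calls, which are given as description only.

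Total RNA came from prefrontal cortex, amygdala and liver of male C57BL/6J mice given 1 of 3 agonists of the peroxisome proliferator-activated receptors (PPARs), or saline, by mouth for 8 days. Fenofibrate mice, dosed at 150 mg/kg with this PPARα agonist, gave 9 arrays in each tissue. Tesaglitazar mice (1.5 mg/kg; the compound activates the α and γ receptors) gave 9 cortex, 10 amygdala and 9 liver arrays. Bezafibrate mice (75 mg/kg; the compound activates every PPAR type) gave 10 cortex, 9 amygdala and 9 liver arrays. Saline mice gave 10 cortex, 9 amygdala and 10 liver arrays. The compounds differed in dose as well as in structure, so contrasts between them are contrasts of these treatments. The labels give no age and describe 10 mice per treatment, each array being 1 tissue of 1 numbered mouse.

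Between 38.1% and 50.6% of all probes were above background on an array, with mean signals between 243 and 447 units, and the number of arrays limits the precision. A pair of liver libraries went against their labels. Liver saline 4 lay with the tesaglitazar livers and liver tesaglitazar 6 with the saline livers, and they were fitted as labelled. Lowest, median and highest levels in liver are given without them. Counts of members called in liver with the filter on detection are also given without them. Other liver counts include them as labelled unless stated. Of 9 neuron markers, 6 were above background on every brain array, while the probes for Snap25 and Nefl were above background on no brain array. All 6 oligodendrocyte markers with a probe were above background on every brain array. In liver without that pair, the marker probes for Mbp, Mobp, Mog and Opalin were above background on no array, although another Mbp probe was above background on 7 of 9 saline livers, and 5 of 6 hepatocyte markers were above background on every liver array.

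Genes of this kind make up the working equipment of neurons and of the glia that insulate them. Transmitter is loaded into vesicles, released at the active zone and taken back by endocytosis. Kinesin motors carry the vesicles along microtubules, and ion channels and glutamate or GABA receptors set how a cell fires. Outside the nervous system many such genes are held silent, in part by the repressor REST, which binds a DNA element called RE1. PPARs are lipid-sensing nuclear receptors whose best known targets in liver are genes of fatty acid oxidation.

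Of the members, 176 probes had a gene name, with 13 genes read by 2 probes and none by more, and 24 probes carried no gene name. Brightness belongs to a probe and not to its transcript alone, so the order of members is not an order of abundance. The brightest was Mbp, myelin basic protein, a structural protein of compact myelin, at 13.56 ± 0.28 (log2 level, SD, 19 saline brain arrays). Sult4a1, a sulfotransferase family member of brain, followed at 13.38 ± 0.16. Sh3gl2, the vesicle endocytosis protein endophilin A1, stood at 13.25 ± 0.17, and Eef1a2, the translation elongation factor form of neurons and muscle, at 13.18 ± 0.13. Eno2, neuron-specific enolase, stood at 13.07 ± 0.14. The rest of the 12 brightest were 6330403K07Rik, the unnamed probe ILMN_1232107, Kif5a (a kinesin heavy chain), Dnajc6 (auxilin, which uncoats clathrin vesicles), B230209E15Rik, Chst1 (a sulfotransferase) and Fez1 (a kinesin adaptor). At the lower edge Nkain2 (9.42), ILMN_1254985 (9.41) and Cldn10 (9.41) were inside, while Wdr47 (9.39), a second Scn2a probe (9.39) and ILMN_1256701 (9.38) were outside. At the regional limit Sult4a1, with a cortex minus amygdala difference of 0.2499, and Ccdc106 (0.2495) lay just inside, and Sorcs3 (0.2503) and Dusp8 (0.2516) just outside. After median centring in place of quantile normalisation, 50.5% of the 200 were chosen again.

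By gene list, 58 of the 200 fell in a list of known function. The largest group, 11 probes, served the neuronal cytoskeleton and axonal transport, led by Kif5a, Fez1 and Stmn2, a microtubule-destabilising protein of growing axons. There were 8 probes for ion channels and receptors, led by Scn2b (a sodium channel subunit), Gria2 (an AMPA receptor subunit) and Kcnd2 (a potassium channel). Another 7 served neuronal transcription and RNA binding, with Myt1l, Celf4 and Elavl3 brightest, and 6 were cell adhesion and surface proteins, with Astn1, Cntn1 and Nrcam among them. The synaptic vesicle cycle had 5 (Sh3gl2, Syngr3 and Slc17a7, the vesicular glutamate transporter 1, brightest) and G protein signalling 5, including Diras1, Gng13 and Ppp2r2b. Myelin had 4 (Mbp, Cldn11, Bcas1 and Mobp). The postsynaptic density had 3 (Nrgn, which binds calmodulin, Camk2a, a calcium-dependent kinase, and Nptx2, a secreted pentraxin that clusters AMPA receptors), and astrocyte genes 3 (Gjb6, a connexin, and Cldn10 through 2 probes). Granins and their processing had Scg5 and Scg3, energy metabolism Eno2 and Ckmt1, and GABA synthesis 2 probes for Gad1, glutamate decarboxylase. No member was in the lists of PPAR targets, calcium-binding proteins, immediate early genes, microglia, endothelium, choroid plexus, red cells or hepatocytes. For most of these the rule left few probes to choose from. The detection steps passed 0 hepatocyte, red cell or choroid plexus probes, 1 endothelial, 2 PPAR target and 3 microglial probes. They passed 7 immediate early and 9 calcium-binding probes. Within saline groups the SD of a member had a median of 0.17, from 0.08 to 0.51, and was widest for Mobp (0.51), Nrip3 (0.50), Map1b (0.49), Ndrg4 (0.41) and ILMN_1254985 (0.39). The Pcdha6 and Pcdha7 probes belong to a cluster of genes that share constant exons, and Gdf1 shares a transcript with Cers1, so their signals may not be of 1 gene.

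Other probes of the same genes bore on whether a member's absence from liver was that of its gene. Of the further probes that the array held for member genes, 132, or 59.7%, were above background on all 19 saline brain arrays. On the 9 saline liver arrays 72.9% were above background on none, and 4 probes, for Lrrc40, Ppp2r2c and Rtn1, on all 9. That was 1.81% of the further probes, against 32.9% of all probes. A further 56 probes were above background on 1 to 8 saline livers. Among these were probes for Gnao1 and Slc4a3 on 8 of the 9, Mbp and Myo5a on 7, and Scn2b, Sptb and Nkain2 on 6, named after their values were seen. For Mbp, 3 other further probes were above background on all 19 brain arrays and on 0 of the 9 livers. Absence from liver is thus a property of the member probe, and for these genes another probe was read in liver.

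Member genes were long. Their median span from start to end was 44.8 kb over 162 genes with a length, against 24.3 kb for 9749 genes whose probes were above background on all saline brain arrays, and 38.3% against 14.9% spanned over 100 kb. The longest were Cntnap2 (2241 kb), a neurexin relative at nodes of Ranvier, Dpp10 (1514 kb), which binds Kv4 channels, and Nkain2 (1208 kb).

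Promoter windows were examined because RE1 is the best known element of genes kept off outside neurons. RefSeq windows on GRCm38.p6, from 250 bases before to 50 bases after a start, gave 176 windows of member genes. Their median GC content was 60.8%, against 61% for brain-detected genes and 52.7% for all windows, and they held a median of 16 CG pairs, against 20 and 7. The GC box CCGCCC, searched on both strands, stood in 56.8% of member windows, in 62.6% of windows of brain-detected genes and in 35.7% of all windows. The TATA box TATAAA stood in 10.2%, 7.13% and 13.6% of the same sets. The RE1 core, CAGCACC and GGACAG with 2 free letters between them, stood in 1 of 176 member windows, that of Ttc9b, against 0.0676% of brain-detected windows and 0.0365% of all. Its left part TCAGCACC stood in 1.70% of member windows, those of Kif5c, Ppfia3 and Ttc9b, against 1.79% of brain-detected windows, and its right part GGACAGCG in 1.70%, those of Dnajc6, Gria2 and Ttc9b, against 2.22%. The 2 parts overlap the core. The PPAR element, AGGTCA repeated with 1 free letter between, stood in 0 of 176 member windows and in 0.0396% of all. 4 windows are shown, the Ttc9b window for its RE1 core and those of Unc79, Pdxp and Hcn2, members that were read in liver of agonist-treated mice. Capitals mark the RE1 core in Ttc9b and GC boxes in the others; Unc79 had none, Pdxp 1 and Hcn2 3. All are on the plus strand, at chr7:27653674-27653973 for Ttc9b, chr12:102948609-102948908 for Unc79, chr15:78913669-78913968 for Pdxp and chr10:79716384-79716683 for Hcn2.
Ttc9b: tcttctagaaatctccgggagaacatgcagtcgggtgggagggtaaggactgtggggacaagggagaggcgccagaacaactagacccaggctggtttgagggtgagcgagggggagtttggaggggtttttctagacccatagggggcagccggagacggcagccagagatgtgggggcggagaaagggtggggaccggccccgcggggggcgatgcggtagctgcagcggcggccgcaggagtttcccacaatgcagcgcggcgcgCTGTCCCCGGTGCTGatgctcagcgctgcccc
Unc79: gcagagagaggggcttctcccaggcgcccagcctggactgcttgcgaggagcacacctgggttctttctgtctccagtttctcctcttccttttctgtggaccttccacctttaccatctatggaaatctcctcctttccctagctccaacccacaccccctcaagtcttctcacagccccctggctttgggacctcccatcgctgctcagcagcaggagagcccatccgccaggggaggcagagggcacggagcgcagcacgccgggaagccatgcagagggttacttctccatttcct
Pdxp: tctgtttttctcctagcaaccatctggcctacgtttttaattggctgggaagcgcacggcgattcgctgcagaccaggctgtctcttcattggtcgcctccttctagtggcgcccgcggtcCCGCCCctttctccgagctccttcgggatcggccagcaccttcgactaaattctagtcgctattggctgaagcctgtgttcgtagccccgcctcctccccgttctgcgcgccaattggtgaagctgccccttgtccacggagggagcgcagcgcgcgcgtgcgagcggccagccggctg
Hcn2: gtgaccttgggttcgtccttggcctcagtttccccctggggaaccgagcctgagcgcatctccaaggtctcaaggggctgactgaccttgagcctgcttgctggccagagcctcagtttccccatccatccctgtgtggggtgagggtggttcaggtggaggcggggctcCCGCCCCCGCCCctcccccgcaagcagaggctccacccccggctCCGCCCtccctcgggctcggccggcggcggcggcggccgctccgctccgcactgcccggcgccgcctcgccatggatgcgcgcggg
The core in Ttc9b begins at base 269 of its window, on the minus strand, which is after the start. A match is of letters alone, and a window without one says nothing of the factor.

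In agonist-treated mice, none of which chose the members, all 200 were above background on all 56 brain arrays. In the 27 agonist livers 208 of 5400 readings were above background, or 3.85%, against 40.2% for all probes. Background alone would give 5%, but for probes not chosen by their liver signal. The members were chosen to be at background in saline liver, so 5% is no chance rate for them. By member, 140 were above background on no agonist liver array, 37 on 1, 16 on 2 to 7 and 7 on 12 or more.

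Brain levels exceeded liver levels for every member when agonist arrays of the 3 tissues were put on 1 scale. With the 26 agonist livers other than tesaglitazar 6, limma called 200 of 200 members higher in brain at an adjusted p under 0.05, where 91.3% of all tested probes differed with 43.9% higher and 47.5% lower in brain. Mbp had 13.06, 13.58 and 14.02 (lowest, median and highest log2 level) over 28 cortex arrays, 12.51, 13.54 and 14.09 over 28 amygdala arrays, and 4.18, 4.35 and 4.83 over the livers, where it was above background on 0. Gad1, through its brighter probe, had 11.53, 12.01 and 13.23 in cortex, 11.90, 12.26 and 12.64 in amygdala, and 4.15, 4.23 and 4.80 in liver. For neither gene did brain and liver values overlap. A probe not above background has only an upper limit in liver, so folds are lower bounds. For the 71.5% of members below background on all 26 livers they reached 411, with a median of 41.8. Through its member probe Mbp was at least 411-fold higher in brain, a bound that does not extend to the Mbp probe read in liver. The bounds were at least 384-fold for Sult4a1, at least 344-fold for Sh3gl2 and at least 304-fold for Eno2 (limma adjusted p 9.29e-98 for the Mbp member probe). Fewer cells of a type and less RNA per cell cannot be told apart in these bulk tissues.

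**Figure D1:**
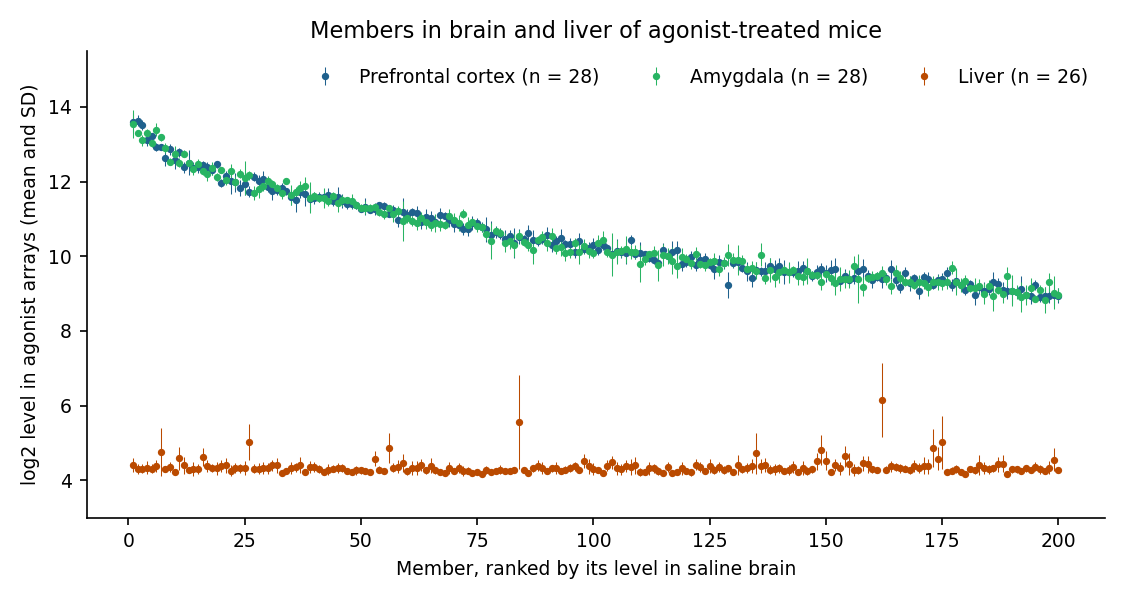
Mean and SD of the log2 level of each of the 200 members (y axis) in prefrontal cortex (28 arrays), amygdala (28 arrays) and liver (26 arrays) of agonist-treated mice, in the order of brightness in saline brain (x axis). Members lie in a falling band in brain, the 2 regions on top of each other, and near 4.3 in liver, with a few above 5.

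Prefrontal cortex and amygdala, held close by the rule in saline mice, were close in agonist mice as well. For 84.5% of members the difference was under 0.25 on the log2 scale, against 64.5% of all tested probes. Small differences were nevertheless common. limma called 116 members, 66 higher and 50 lower in cortex, against a background of 63.7% of all probes (32.1% higher and 31.6% lower), so the share of 58.0% was no larger than that of probes at large. After median centring, which moved the median of all probes by -0.09, 57.5% of members were called, 7% higher and 50.5% lower in cortex, and 13 of the 116 changed sign; the direction of small differences rests on the scaling. With mouse number as a block the count was 110. The share of all probes called in these refits is not given, so their counts are description.

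Nptx2 differed most between the regions and was lower in cortex. It had 8.72, 9.55 and 10.03 in cortex (lowest, median, highest log2 level, 28 arrays) and 9.80, 10.23 and 10.90 in amygdala. The ranges overlap little, and the mean difference was -0.74 ± 0.08 (SE, limma adjusted p 6.95e-13). Asic1, an acid-sensing sodium channel, had 9.11, 9.50 and 9.70 in cortex and 9.53, 9.91 and 10.19 in amygdala, a difference of -0.43 ± 0.04 (adjusted p 7.38e-13). Other members lower in cortex were 6330403K07Rik (-0.42), the orphan receptor Gpr83 (-0.41), Pdxp (-0.39), a phosphatase for pyridoxal phosphate, and 4930488B01Rik (-0.37). Median centring left all 6 lower in cortex and called.

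Higher in cortex were Scn2b (0.44 ± 0.06, adjusted p 1.99e-08), Matk, a kinase (0.43), Ryr2, the calcium release channel of the endoplasmic reticulum (0.41), Septin3 (0.39), Sh3gl2 (0.37) and ILMN_2470251 (0.36). Scn2b, through that probe, had 9.11, 9.92 and 10.31 in cortex and 8.86, 9.40 and 9.88 in amygdala, groups that overlap. The 8 ion channel and receptor probes had a median of 0.24, and 7 of them were called higher in cortex: both Scn2b probes, Kcnd2, Grm5, Scn2a, Hcn2 and Kcnc1. Gria2 differed by 0.01 ± 0.04. After median centring 2 of the 8, Hcn2 and the Scn2b probe above, were called higher in cortex and 1, Gria2, lower. In the whole list 44 of 74 probes were called higher and 14 lower, with a median of 0.25.

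Both Gad1 probes were lower in cortex, by 0.24 ± 0.06 and 0.18 ± 0.07 on the log2 scale, and so they were after median centring. In the list of GABA genes 13 of 14 probes were called lower in cortex and 0 higher. None of the 4 myelin members was called: Mbp differed by 0.04 ± 0.08 and Mobp by 0.02 ± 0.11. Sult4a1 (0.31), Eno2 (0.16) and Kif5a (-0.25) show how the brightest members went either way. Of 13 genes with 2 member probes, 11 had both in the same direction, and in 8 both were called, all 8 in the same direction.

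**Figure D2:**
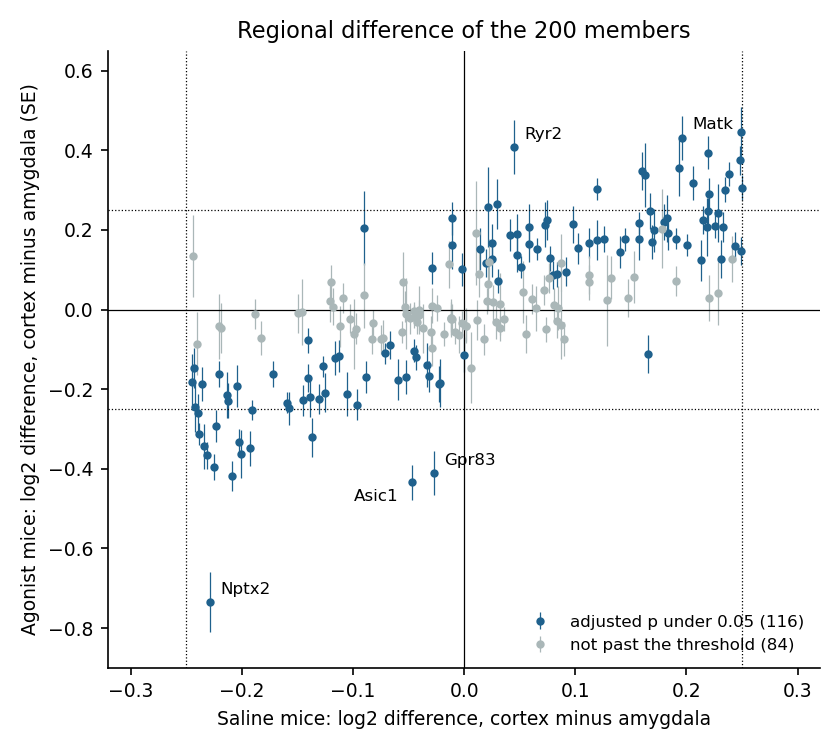
Each point is 1 of the 200 members: the cortex minus amygdala log2 difference in saline mice, which the rule kept within 0.25 (x axis), against the same difference in agonist mice with its SE (y axis). Dotted lines mark 0.25; 116 members are past an adjusted p of 0.05 and 84.5% of the members lie within 0.25 on the y axis, with Nptx2 lowest at -0.74.

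A few members differed between fenofibrate and saline in prefrontal cortex, at a share close to that of all probes and by little. The comparison asks whether an oral PPARα agonist changes what brain cells express. Nptx2 was lower by most, and Slc17a7, Kcnip3 (a calcium sensor that binds Kv4 channels) and the orphan receptor Gpr162 were among those lower. limma called 16 of 200 members, 3 higher and 13 lower, which is 8% against 6.04% of all tested probes (2.57% higher and 3.48% lower). None reached a 2-fold difference, and for 194 members the 95% interval lay within 0.5 on the log2 scale. The saline arrays in this comparison also chose the members, for high saline signal among other things. Nothing is therefore read from the count, from its direction or from the calls of single members, whose levels are given as description.

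Nptx2 had 8.57, 9.15 and 9.45 in fenofibrate cortex (lowest, median, highest, 9 arrays) and 9.54, 9.76 and 9.91 in saline cortex (10 arrays). The 2 groups did not overlap. The difference was -0.62 ± 0.11 (SE), or 1.53-fold lower with fenofibrate. The alternatives run reuse the saline arrays that chose the members, so they add nothing to it. Tesaglitazar cortex had 9.34, 9.61 and 9.90 and bezafibrate cortex 8.74, 9.27 and 9.78, which reach into both groups. In amygdala the same probe had 9.92, 10.33 and 10.55 with fenofibrate and 9.56, 10.18 and 10.74 with saline, groups that overlap throughout.

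Gpr162 had 8.74, 9.16 and 9.23 with fenofibrate and 9.05, 9.40 and 9.49 with saline, 1 saline array lying among the fenofibrate ones (-0.32 ± 0.07). Slc17a7 had 11.06, 11.41 and 11.55 with fenofibrate and 11.43, 11.71 and 11.87 with saline, with overlap (-0.28 ± 0.08). Rundc3a (-0.32), Kcnip3 (-0.30), and Dmtn (-0.26), which bundles actin, completed the 6 largest falls. Ttc9b, whose promoter window is shown above, fell by 0.26, Cldn10 fell by 0.25 through 1 of its 2 probes, and Cend1, B3gat1, Pdxp, Diras1 and ILMN_2950622 fell by 0.17 to 0.26. The B3gat1 call was of 1 of its 2 probes, the other differing by -0.31 (adjusted p 0.0604). ILMN_1243921 (0.41), ILMN_2463583 (0.26) and Fgf12 (0.26), a sodium channel-binding relative of growth factors, were higher.

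By list, 1 of 5 synaptic vesicle members (Slc17a7), 1 of 3 postsynaptic members (Nptx2), 1 of 5 G protein members (Diras1) and 1 of 3 astrocyte members (Cldn10) were called, all lower, and 0 of 8 channel, 0 of 11 cytoskeletal, 0 of 4 myelin and 0 of 2 GABA members. The median of the myelin members was -0.22 and that of all probes -0.01. Over all probes 3.48% were called lower and 2.57% higher. In the full lists 7 of 80 synaptic vesicle probes and 4 of 58 postsynaptic probes were called lower and none higher. Lists of glia and metabolism had 3 of 36 myelin probes (Fa2h, Cnp and Opalin), 3 of 45 astrocyte probes and 3 of 30 energy metabolism probes lower and none higher. Each list holds few calls, so no pattern is read from these counts. Of 72 channel and receptor probes 3 were higher and 2 lower, of 114 cytoskeletal probes 6 higher and 3 lower, and of 76 adhesion probes 5 higher and 3 lower. Among 73 probes for neuronal transcription and RNA binding 4 were called higher, those of Mef2c, Rian, Peg3 and Meg3, and none lower.

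The summed signal of 6 oligodendrocyte markers ran from 12654 to 21565 with fenofibrate and from 15170 to 25203 with saline, and that of 6 astrocyte markers from 21195 to 28353 and from 20013 to 23585. Fenofibrate array 20 was the highest of its group in astrocyte, oligodendrocyte and microglia markers, and without it 11 members were called, 4 higher and 7 lower. Fenofibrate array 17 stood apart in choroid plexus markers, with a sum of 27162 against a median of 216 in its group and at most 4057 with saline, and without it 18 were called, 2 higher and 16 lower. The 2 erythrocyte markers had median sums of 3987 with fenofibrate and 5227 with saline. The part of these cell types in the result was not tested. Of neuron markers, the sums were 40476 to 46872 and 42591 to 47265. Median centring called 2 members, Nptx2 lower and ILMN_1243921 higher, and all 16 kept their direction. Within mice numbered 1 to 20, 1 member was called and within 21 to 40, 2. Leaving out 1 array gave 8 to 23 calls: 8 without fenofibrate 38, saline 3 or saline 4, and 10 without fenofibrate 40. The share of all probes called in these refits is not given.

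**Figure D3:**
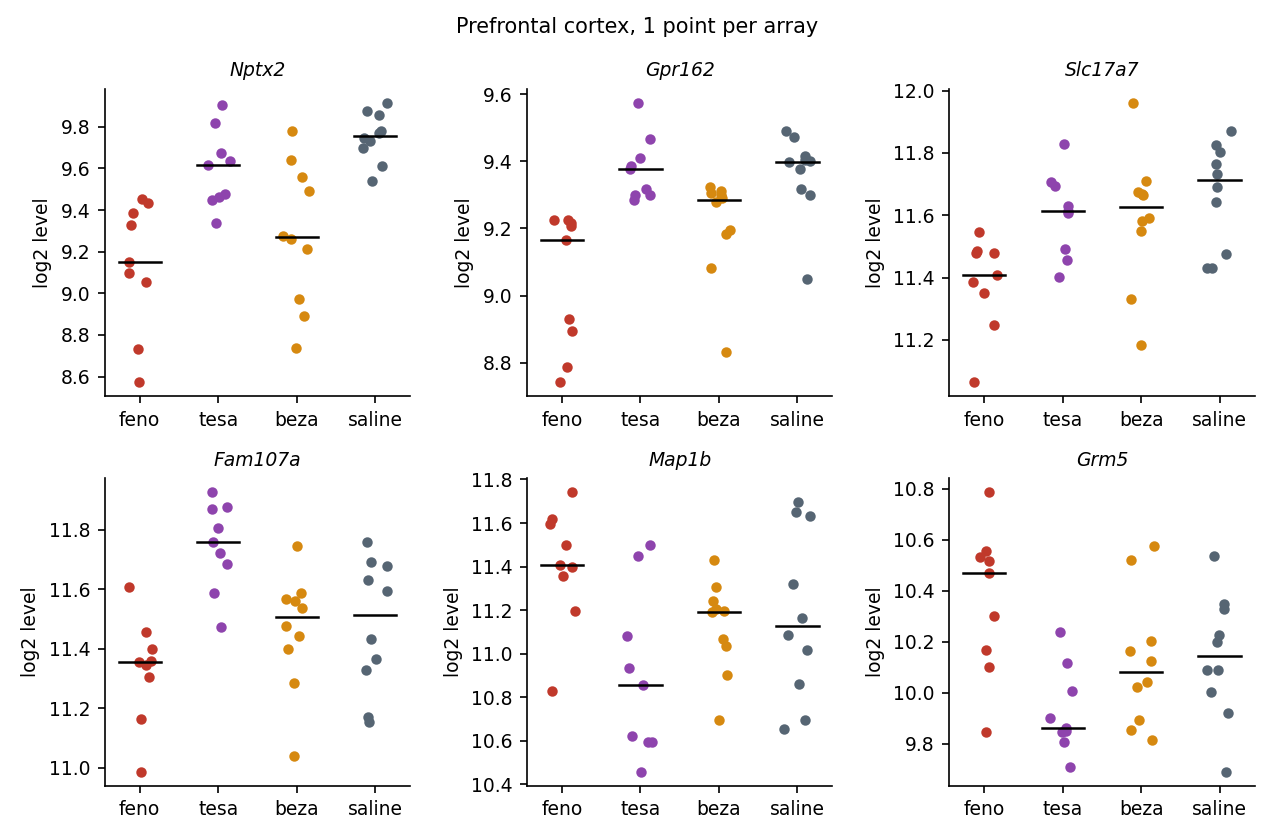
log2 level (y axis) of 6 members on each prefrontal cortex array, by treatment (x axis: feno, fenofibrate; tesa, tesaglitazar; beza, bezafibrate; saline), with a line at each group's median. For Nptx2 all 9 fenofibrate arrays lie below the 10 saline arrays; for Map1b and Grm5 the fenofibrate arrays lie mostly above the tesaglitazar arrays.

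Between fenofibrate and tesaglitazar, prefrontal cortex levels of Map1b, Grm5 and Kcnma1 were higher with fenofibrate, and those of Nptx2 and Fam107a lower. Here limma called 22 members, 8 higher and 14 lower with fenofibrate, or 11% against 8.10% of all probes (4.59% higher and 3.51% lower), again a share close to the background. The saline arrays, which chose the members, are on neither side of this difference. They did share in the normalisation and in the estimate of spread behind its SE and adjusted p. Map1b, a microtubule-binding protein of growing axons, had 10.83, 11.41 and 11.74 with fenofibrate (lowest, median, highest, 9 arrays) and 10.46, 10.85 and 11.50 with tesaglitazar (9 arrays), groups that overlap (0.51 ± 0.14, adjusted p 0.0212). Grm5, the metabotropic glutamate receptor 5, had 9.85, 10.47 and 10.79 with fenofibrate and 9.71, 9.86 and 10.24 with tesaglitazar, also overlapping (0.44 ± 0.11, adjusted p 0.0100). Fbxo41 was higher by 0.44, ILMN_1243921 by 0.40, ILMN_2470251 by 0.39 and the potassium channel gene Kcnma1 by 0.36, and Unc79, part of the NALCN sodium leak channel complex, by 0.30.

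Fam107a had 10.99, 11.36 and 11.61 with fenofibrate and 11.47, 11.76 and 11.93 with tesaglitazar, with 1 fenofibrate array inside the tesaglitazar range (-0.41 ± 0.09, adjusted p 0.00260). Nptx2 was lower with fenofibrate here too (-0.46 ± 0.12, adjusted p 0.00965). Brinp1 (-0.39), Gpr162 (-0.34), B3gat1, which makes the HNK-1 sugar epitope (-0.32), and Ppfia3, the active zone protein liprin-α3 (-0.27), completed the 6 largest falls. Of 28 alternatives, the call was kept in 27 for Nptx2, 26 for Fam107a, 25 for Grm5 and 23 for Map1b. It was kept in only 16 for Kcnma1, 14 for Brinp1 and 12 for B3gat1. A set of 6 members, Nptx2, Gpr162, Rundc3a, Cldn10, ILMN_2950622 and ILMN_1243921, were called in both cortex comparisons of fenofibrate, which share the fenofibrate arrays. After median centring 24 members were called, 0 higher and 24 lower, and 12 of the 22 were among them. All 22 kept their direction. Median centring put the median difference of all probes at -0.06 and that of the members at -0.16. Markers of other cells differed here as well: the erythrocyte sums ran from 3520 to 5473 with fenofibrate and from 2072 to 4405 with tesaglitazar, and the choroid plexus sums from 85.8 to 27162 and from 211.4 to 1111. The median difference was 0.37 over the erythrocyte list and 0.34 over the choroid plexus list, with 0 probes called in either. Of 45 astrocyte probes 3 were called higher and 5 lower, and of 14 endothelial probes 2 lower. Their part in the result was not tested. Without fenofibrate 17 there were 27 calls and without fenofibrate 20 there were 16. Within mice 1 to 20 there was 1 call and within 21 to 40 there were 9. Without tesaglitazar 27 there were 9 and without fenofibrate 40 there were 13. The share of all probes called in these refits and after median centring is not given. Nothing is therefore read from their counts or directions about the members.

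The other comparisons of treatments in brain called no member in limma. The shares of all probes called in prefrontal cortex were 0% for tesaglitazar against saline and 0.0130% for bezafibrate against saline. They were 0.104% for fenofibrate against bezafibrate, with 0.0823% higher and 0.0217% lower, and 0.0173% for tesaglitazar against bezafibrate, with 0.0130% higher and 0.00433% lower. At an unadjusted p under 0.05 the members were close to all probes in each: 14 members, or 7%, against 6.47% of all probes for tesaglitazar against saline, and 9, or 4.5%, against 4.26% for bezafibrate against saline. There were 29, or 14.5%, against 13% for fenofibrate against bezafibrate, and 7, or 3.5%, against 5.94% for tesaglitazar against bezafibrate. The 95% interval lay within 0.5 on the log2 scale for 98.5% to 99.5% of members. In amygdala all 6 comparisons called 0 of 200 members and 0% of all probes, with 91% to 94.5% of intervals within 0.5. At an unadjusted p under 0.05 the members were not close to all probes in each. For fenofibrate against saline 32 members passed, or 16%, against 8.67% of all probes. There were 31 for fenofibrate against bezafibrate (8.73% of all probes) and 23 for tesaglitazar against bezafibrate (7.79%). Bezafibrate against saline had 16 (5.11%) and tesaglitazar against saline 11 (6.36%). Fenofibrate against tesaglitazar had 6, or 3%, against 4.9%. Within mice 1 to 20, 17 members were called for fenofibrate and 11 for bezafibrate against saline, and within mice 21 to 40, 1 for fenofibrate and 12 for tesaglitazar. The share of all probes called in these subsets is not given, so nothing is read from these counts about the members. The difference between the fenofibrate responses of cortex and amygdala, tested directly, was called for 0 members against 0.408% of all probes (0.0550% higher and 0.353% lower), with 47 members, or 23.5%, and 14.9% of all probes at an unadjusted p under 0.05. The lowest adjusted p was 0.0512, for Gpr83 (-0.57 ± 0.15), and the limma settings that differ called 0 to 3 members, so the cortex calls are not shown to be absent from amygdala.

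In liver a few members stood above background in agonist-treated mice and at background in saline mice, which the rule fixed for 9 of the 10 saline livers. On each liver array 3 to 11 members were above background with fenofibrate (median 9) and 7 to 19 with tesaglitazar (median 11). With bezafibrate there were 0 to 7 (median 2). Background alone would give 10 of 200, but for probes not chosen by their liver signal, as the members were. Liver saline 4 had 14 and the other saline livers 0. Liver tesaglitazar 6 had 7, the lowest of its group.

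**Figure D4:**
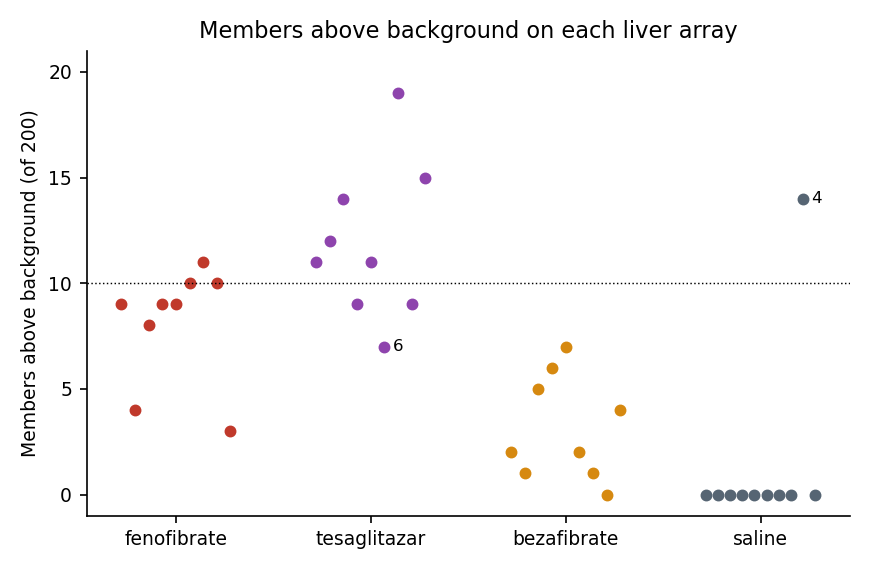
Members above background (of 200, y axis) on each liver array, by treatment (x axis). The dotted line marks the 10 members that a rate of 5% gives, a rate for probes not chosen by their liver signal. The saline arrays other than 4 are at 0 by the rule, and labelled points are saline 4 (14 members) and tesaglitazar 6 (7 members).

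The liver signals were small next to those of brain. Unc79 had 5.85, 6.19 and 6.68 with fenofibrate (9 arrays), 5.43, 5.83 and 7.02 with tesaglitazar (8 arrays without tesaglitazar 6), 4.39, 4.47 and 5.13 with bezafibrate (9 arrays), and 4.24, 4.37 and 4.49 with saline (9 arrays without saline 4). Fenofibrate and tesaglitazar lay above all bezafibrate values, while the place of the saline values at background was set by the rule. Saline 4 had 6.20 and tesaglitazar 6 had 4.25. It was above background on 20 of 27 agonist livers. Sybu, syntabulin, which links vesicle cargo to kinesin, had 4.38, 4.64 and 5.88 with fenofibrate, 5.48, 6.61 and 7.32 with tesaglitazar, 4.16, 4.27 and 4.53 with bezafibrate and 4.20, 4.29 and 4.52 with saline. Its tesaglitazar values lay above all bezafibrate values, and 1 fenofibrate array reached into them; saline 4 had 6.43 and tesaglitazar 6 had 4.26. Rims2, an active zone scaffold, had 4.33, 4.62 and 4.94 with fenofibrate, 4.56, 5.20 and 5.93 with tesaglitazar, 4.18, 4.22 and 4.64 with bezafibrate and 4.23, 4.32 and 4.42 with saline. Pdxp had 4.65, 4.91 and 5.28 with fenofibrate, 4.44, 4.64 and 4.86 with tesaglitazar, 4.22, 4.35 and 4.64 with bezafibrate and 4.19, 4.27 and 4.37 with saline, and was above background on 18 of 27 agonist livers. Hcn2, a pacemaker channel, was highest with tesaglitazar (4.62, 4.77 and 4.91), the fenofibrate values being 4.24, 4.43 and 4.66 and the bezafibrate values 4.20, 4.35 and 4.75. Its saline values were 4.17, 4.23 and 4.41. The unnamed probes ILMN_2625279 and ILMN_3120335, the second named after its values were seen, were above background on 14 and 12 agonist livers.

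These 7 members were the ones to pass the filter on detection, and they passed through the groups where they were high. With no filter, over all 200, limma called 9 for tesaglitazar against bezafibrate, all higher, or 4.5% against 15.4% of all probes (7.76% higher and 7.60% lower). It called 8 for fenofibrate against tesaglitazar, 3 higher and 5 lower, or 4% against 4.41% (2.13% higher and 2.29% lower), and 4 for fenofibrate against bezafibrate, all higher, or 2% against 4.85% (2.61% higher and 2.23% lower). With the filter it called 6 of the 7 for tesaglitazar against bezafibrate, all higher, where 37.5% of all probes were called, 18.6% higher and 18.9% lower. It called 4 for fenofibrate against tesaglitazar, 1 higher and 3 lower, where 13.9% were called, 6.86% higher and 7.01% lower, and 3 for fenofibrate against bezafibrate, all higher, where 15.4% were called, 7.99% higher and 7.40% lower. The filter let these 7 in through their high groups, so nothing is read from their counts, directions or calls. The differences that follow are description. Without saline 4 and tesaglitazar 6 the counts with the filter were 7, 4 and 4. With tesaglitazar against bezafibrate, Sybu was at least 3.25-fold higher, since it was above background on 8 tesaglitazar and 0 bezafibrate arrays. Its means were 6.25 ± 0.95 and 4.32 ± 0.12 (SD, n = 9 each, tesaglitazar 6 included). Unc79 differed by 1.06 ± 0.23 (SE), Rims2 by 0.82 ± 0.14, Hcn2 by 0.35 and Pdxp by 0.24. Few bezafibrate arrays measured these above background, 3 for Unc79, 1 for Rims2, 2 for Hcn2 and 2 for Pdxp of 9, so the differences are between fitted levels of which the lower lies mostly at background. Without tesaglitazar 6 the Sybu mean with tesaglitazar was 6.50 ± 0.64 (SD, n = 8). With fenofibrate against bezafibrate, Unc79 was higher by 1.63 ± 0.23 and Pdxp by 0.54 ± 0.08. ILMN_2625279 was above background on 8 fenofibrate, 6 tesaglitazar and 0 bezafibrate arrays, at least 1.17-fold higher with fenofibrate and at least 1.06-fold with tesaglitazar. The sizes rest on the processing. Over the alternatives run, Unc79 with fenofibrate against bezafibrate ran from 0.43 to 2.01 and Pdxp from 0.11 to 0.60. Sybu with tesaglitazar against bezafibrate ran from 0.54 to 2.32, so the bounds are those of the main processing.

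With fenofibrate against tesaglitazar, Sybu was lower by 1.45 ± 0.28 on the log2 scale, Rims2 lower by 0.51 and Hcn2 lower by 0.27, and Pdxp was higher by 0.30. These too are description, for members that the filter let in through their high groups. The neuron markers Nefm, Stmn2 and Eno2 were above background on no agonist liver array, tesaglitazar 6 left out. The whole set of 9 neuron markers summed to 302 to 487 in fenofibrate livers, 220 to 332 in tesaglitazar livers and 415 to 528 in bezafibrate livers. Its sum was lowest with tesaglitazar, and its part in the result was not tested. Within mice 1 to 20 the calls were 3, 0 and 0, and within mice 21 to 40 they were 5, 4 and 4. The order is tesaglitazar against bezafibrate, fenofibrate against tesaglitazar and fenofibrate against bezafibrate. The share of all probes called in these subsets is not given.

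**Figure D5:**
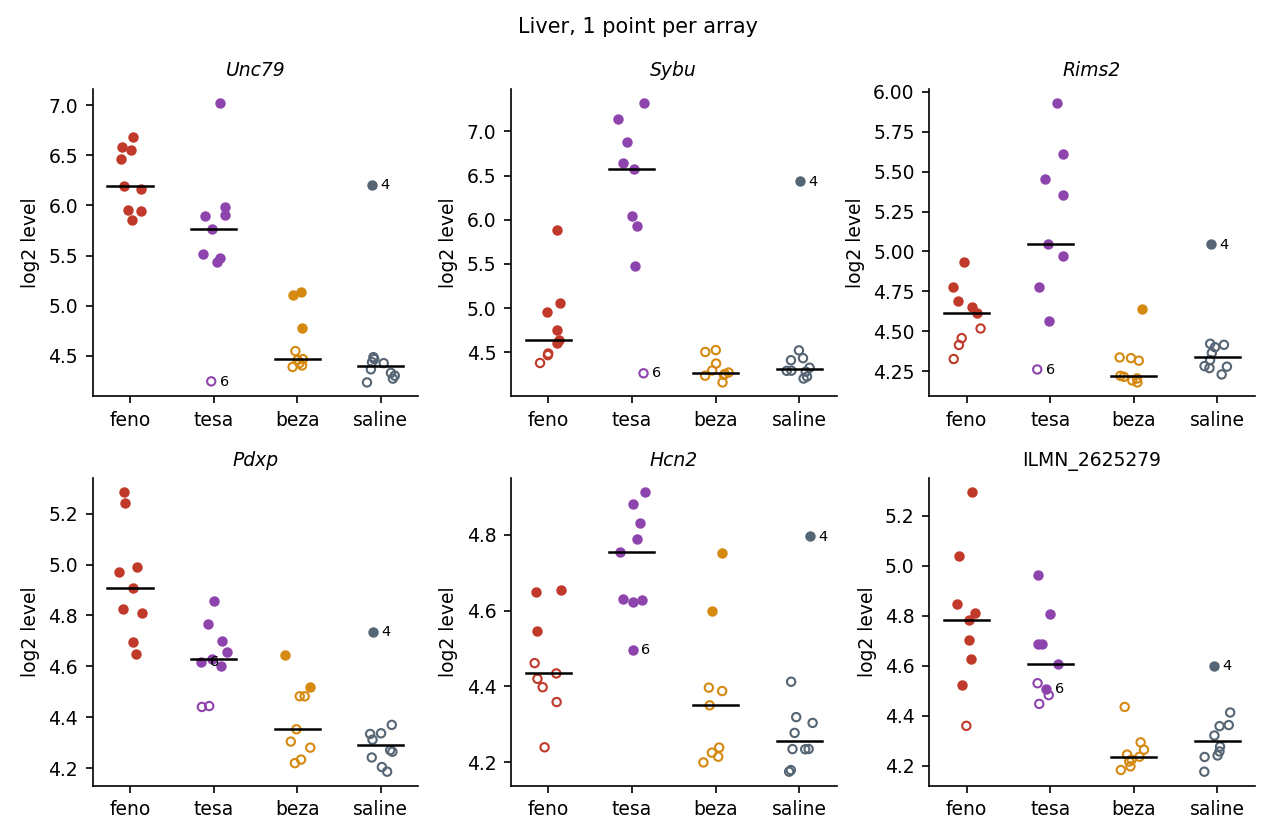
log2 level (y axis) of 6 members on each liver array, by treatment (x axis, named as in the cortex plot), with a line at the median of all arrays of the label. Filled points are above background and open points are not; numbered points are tesaglitazar 6 and saline 4. Unc79 is filled on all 9 fenofibrate arrays and Sybu on 8 of 9 tesaglitazar arrays.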

How the data were processed

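Liver, prefrontal cortex and amygdala RNA was read on Illumina bead arrays (112 arrays, 12 groups). The authors deposited 1 table of probe intensity with a detection p-value beside each array, per the file headers, and a table of log2 processed values, per the submitters' processing notes made with lumi. A further 8 array columns had no sample and were not used. From the intensities, background was corrected by normexp fitted through the detection p-values (offset 16, limma 3.58.1, R 4.3.3) and log2 values were quantile normalised within a tissue, or over the tissues compared. Probes with a detection p under 0.05 on at least 9 arrays were fitted by lmFit and eBayes, with two-sided p-values adjusted by Benjamini-Hochberg over all probes fitted; called means an adjusted p under 0.05. For comparisons of treatments, all treatments of a tissue were fitted together and shared the estimate of the spread. The steps were tested on simulated data. Within a tissue each array is of a separately numbered mouse. Comparisons across tissues hold several arrays of the same mouse number, and their main fits did not block by it. Fits with that block are given as alternatives.

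The members and the 20 gene lists were chosen with earlier results of these data known. Named were the 12 brightest members, the 3 brightest of each list, up to 6 largest rises and falls per comparison, the 5 members read on most agonist livers, those at the edges of the rule, and the 5 with the widest saline spread, with at most 2 higher and 2 lower probes without a gene name per comparison. Any other member was named after its values were seen. Mouse numbers are shared between tissues. Over 26 pairs, deviations of cortex and amygdala arrays of the same number had a median correlation of 0.06, against 0.00 for other numbers, and 10 pairs were over 0.1, so the numbers give a mouse from the labels but little shared deviation. Alternatives were median centring, no background correction, the authors' processed values, array weights, other eBayes settings, no filter, mouse blocks, mouse numbers 1 to 20 and 21 to 40 apart and leaving out each array. Promoter windows came from RefSeq (GRCm38.p6) and plots from matplotlib.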

Additional observations from a re-analysis of the deposited data

Results flagged for a closer look

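In 12 groups of arrays, 11.7% of those checked for the named members, 1 array lay far from the rest of its group; chance alone gives about 1 group in 20, or 5%. In prefrontal cortex, fenofibrate array 20 was low for Dmtn (10.18, the nearest array at 10.68) and for ILMN_2463583 (9.10, nearest 9.61). Bezafibrate array 32 was low for Gpr162 (8.83, nearest 9.08), and tesaglitazar array 28 was low for Brinp1 (10.72, nearest 10.89). Saline array 1 was low for Gpr162 (9.05, nearest 9.30) and Rundc3a (9.11, nearest 9.31), and saline array 4 was low for ILMN_2463583 (8.98, nearest 9.31). In liver, Unc79 was high on tesaglitazar array 8 (7.02, nearest 5.99) and Sybu on fenofibrate array 37 (5.88, nearest 5.06). Lower signals stood apart on bezafibrate array 31 for Rims2 (4.64, nearest 4.34), bezafibrate array 13 for ILMN_2625279 (4.44, nearest 4.29) and saline array 23 for ILMN_3120335 (4.50, nearest 4.34), each the highest of its group.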

How the results depend on the processing

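Of 460 alternatives to 18 counts of members, 432 stayed within 1.5 times and 28 did not; of 1094 alternatives to 46 results on named members, 945 kept call and direction, the rest lost the call and 0 reversed. For fenofibrate against saline in cortex, median centring gave 2 calls, fitting only the groups compared 6, mice 1 to 20 gave 1 and mice 21 to 40 gave 2, and leaving out an array 8 to 23. For fenofibrate against tesaglitazar in cortex, array weights gave 35 calls, mice 1 to 20 gave 1 and 21 to 40 gave 9, and leaving out an array 9 to 27. In amygdala, mice 1 to 20 gave 17 for fenofibrate and 11 for bezafibrate against saline, and mice 21 to 40 gave 1 for fenofibrate and 12 for tesaglitazar, against 0 over all mice. The fenofibrate responses of cortex and amygdala differed for 2 members with array weights, 2 with trend and robust settings, 2 without background correction and 3 with the mouse number ranges as a block. Cortex against amygdala gave 60 calls within bezafibrate and 73 within tesaglitazar arrays. With mouse number as a replicate block it gave 110, and brain against liver 200; the block changed no other call by over 1.5 times. In liver, fenofibrate against bezafibrate gave 5 with only the groups compared and 0 in mice 1 to 20, fenofibrate against tesaglitazar 8 with no filter and 0 in mice 1 to 20, and tesaglitazar against bezafibrate 3 in mice 1 to 20; leaving out an array gave 3, 3 to 5 and 6 to 7. Subsets hold fewer arrays, and the cause of the other moves was not tested. These counts stand without the share of all probes called in the same fits, so only their movement is described. The authors' processed values were not run across tissues, since each tissue was normalised apart. In liver, signals close to background limit every fold.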
